A study of Mus musculus with 16 samples.

Results

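The 37 genes described here are the mouse genes of glycolysis, of the fate of pyruvate and of glycogen synthesis, together with the HIF system and targets of it outside glycolysis. They were chosen by name, with earlier results of these data known. All 37 were found among the 52636 gene rows of each library. Glycolysis splits glucose into pyruvate in a chain of cytosolic enzymes, and many of its steps have more than 1 isozyme. HIF-1, a dimer of the oxygen-regulated subunit HIF-1α and a constant partner, binds the core sequence ACGTG or GCGTG and induces most glycolytic enzymes, along with genes of mitochondrial removal, collagen modification and protein folding. Prolyl hydroxylases mark HIF-1α for destruction when oxygen is present. In macrophages HIF-1 and glycolysis are best known for rising with inflammatory activation.

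RNA came from RAW264.7 cells, a mouse macrophage-like line, kept in high-glucose medium with pyruvate. The oxygen level is not stated in the sources used here. Cells received 1 of 2 siRNA products at 25 nM, either a control or one that targets Cebpb, which encodes the transcription factor C/EBPβ. After 24 h they had no further agent or isoproterenol, a β-adrenergic agonist and so a raiser of cAMP. How much isoproterenol was given, and for how long, is not stated in the sources used here. The 4 groups were control siRNA, control siRNA with isoproterenol, Cebpb siRNA, and Cebpb siRNA with isoproterenol, and each held 4 libraries, 2 replicates from each of 2 experiments. Every group had been transfected, so there was no untransfected reference, and with 1 product per target an effect of the product cannot be told apart from an effect of losing Cebpb. The design text calls the libraries biological replicates, and nothing else says that they came from separate cultures. The p-values therefore measure the spread between these samples.

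Levels are given as deposited, in RPM (reads per 1000000 sequenced reads, with 1 RPM or less listed as 0), and in the order experiment 1 replicates 1 and 2, then experiment 2 replicates 1 and 2. The library is a 3′ end library, in which a transcript gives reads near its polyadenylated end whatever its length, so RPM was not divided by length. Differences are log2 differences ± SE between scaled levels, from limma with a term for the experiment, and a gene "rose" or "fell" only at an adjusted p under 0.05 (Benjamini-Hochberg over 11044 genes). Libraries held 9.42 to 25.17 M reads, with 5.81 to 15.9 M on genes, and the smallest was Cebpb siRNA experiment 2 replicate 2. Unmapped reads made up 5.07 to 5.94% of the control siRNA libraries and 5.9 to 7.61% of the Cebpb siRNA libraries. All 10 macrophage markers looked for were above the floor, with a summed level of 1605 to 2067 RPM in control siRNA, 2193 to 2621 with isoproterenol, 1927 to 2151 in Cebpb siRNA and 2012 to 2544 with both. All markers of T and NK cells (6), B cells (4), fibroblasts (5) and epithelial cells (4) were listed at 0. Of 6 neutrophil markers S100a8 alone was detected, at 2.28 to 3.48, 4.44 to 5.84, 0 to 1.05 and 0 RPM in those groups, and of 4 dendritic cell markers Zbtb46 alone, at 3.61 to 6.64 RPM. The part of these shifts in the results was not tested. In bulk RNA, fewer cells of one kind and less RNA per cell cannot be told apart.

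Cebpb, the targeted gene, was lowered in every Cebpb siRNA library. Its level was 74.5, 61.3, 81.4 and 87.3 RPM with control siRNA and 11.8, 25, 21.8 and 33.1 RPM with Cebpb siRNA. With isoproterenol it was 101, 78, 99.1 and 90.6 RPM against 28.5, 27.6, 25.8 and 23.9 RPM. The groups did not overlap in either pair, and the log2 difference was −1.72 ± 0.20 without isoproterenol (limma adjusted p = 4.87e-07) and −1.72 ± 0.20 with it (4.5e-07).

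Of the 37 genes, 34 were above the floor in all 16 libraries and were tested. The other 3 were listed at 0 in every library: Ldhb, the heart-type lactate dehydrogenase subunit, Egln3, the HIF prolyl hydroxylase PHD3, and Ak4, a mitochondrial adenylate kinase. The most abundant with control siRNA were Pkm (712 ± 55.9 RPM, SD, n = 4), pyruvate kinase, and Aldoa (513 ± 15.7 RPM), the main aldolase. Tpi1, triose-phosphate isomerase, followed at 239 ± 11 RPM, and Ldha, the muscle-type lactate dehydrogenase subunit, at 219 ± 11.4 RPM. Pgam1, phosphoglycerate mutase, was the lowest of those detected, at 2.43 ± 0.657 RPM. Some of these levels are uncertain, because reads that aligned to more than 1 place were kept out of the gene values by the authors. Over its last 300 bases Gapdh had a stretch of at least 50 bases at 95% identity or more in 132 other annotated genes. Ldha had 8 such genes, Eno1 had 5, Pkm and Bnip3 had 4 each, Aldoa and Tpi1 had 2 each, and Gpi1 and Higd1a had 1 each. Of the members listed at 0, Ldhb and Ak4 had 1 each as well, so reads set aside for them would not show. Eno2 had 11, among them the unrelated genes Sfpq and Per3. Aldoa occurs in 2 gene rows, of which 1 is listed at 0 throughout and was left aside. The summed level of the 19 genes of the chain from hexokinase to lactate dehydrogenase was 2307 ± 68.7 RPM with control siRNA, 2494 ± 129 with isoproterenol, 2231 ± 162 with Cebpb siRNA and 2408 ± 115 with both. These ranges overlapped between all 4 groups, from 2207 to 2365, 2306 to 2600, 2040 to 2436 and 2237 to 2491 RPM in that order.

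Isoproterenol raised 3 of the 34 tested genes in control siRNA cells, and all 3 belong to the HIF system or its targets outside glycolysis: Bnip3, Hif1a and Ero1l. No member fell. Over all genes 1.17% rose and 0.453% fell. Among the 8 HIF system and target genes the median log2 difference was 0.22, and 6 had a positive difference. Among the 26 genes of glycolysis, pyruvate and glycogen it was 0.08, with none past the threshold, and over all tested genes it was 0.00 (−0.001).

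The promoters of these 3 genes are printed here with those of P4ha1 and Hk2, which moved in opposite directions with Cebpb siRNA below. They run from 250 bases before to 50 after the transcription start (RefSeq, GRCm38.p6), 5′ to 3′ on the gene's own strand, and capitals mark the HIF core ACGTG or GCGTG and their reverse complements CACGT and CACGC.
Hif1a (chr12:73907617-73907916, plus strand): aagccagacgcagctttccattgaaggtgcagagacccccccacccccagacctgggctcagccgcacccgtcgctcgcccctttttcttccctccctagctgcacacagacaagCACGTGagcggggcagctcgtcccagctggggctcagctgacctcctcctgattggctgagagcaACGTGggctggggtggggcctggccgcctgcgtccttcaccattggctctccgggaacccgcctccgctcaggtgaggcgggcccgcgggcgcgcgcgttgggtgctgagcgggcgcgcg
Bnip3 (chr7:138909457-138909756, minus strand): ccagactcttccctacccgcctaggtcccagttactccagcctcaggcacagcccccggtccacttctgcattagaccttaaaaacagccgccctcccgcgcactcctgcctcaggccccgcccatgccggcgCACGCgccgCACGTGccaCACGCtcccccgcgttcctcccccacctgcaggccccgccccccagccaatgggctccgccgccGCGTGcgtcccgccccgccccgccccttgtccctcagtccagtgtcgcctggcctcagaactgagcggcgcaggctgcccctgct
Ero1l (chr14:45318523-45318822, minus strand): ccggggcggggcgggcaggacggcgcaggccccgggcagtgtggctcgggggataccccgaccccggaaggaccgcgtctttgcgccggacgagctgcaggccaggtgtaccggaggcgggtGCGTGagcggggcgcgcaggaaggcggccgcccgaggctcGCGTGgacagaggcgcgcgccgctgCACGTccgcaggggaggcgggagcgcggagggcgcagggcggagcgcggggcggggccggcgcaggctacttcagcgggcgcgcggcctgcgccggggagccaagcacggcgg
P4ha1 (chr10:59323046-59323345, plus strand): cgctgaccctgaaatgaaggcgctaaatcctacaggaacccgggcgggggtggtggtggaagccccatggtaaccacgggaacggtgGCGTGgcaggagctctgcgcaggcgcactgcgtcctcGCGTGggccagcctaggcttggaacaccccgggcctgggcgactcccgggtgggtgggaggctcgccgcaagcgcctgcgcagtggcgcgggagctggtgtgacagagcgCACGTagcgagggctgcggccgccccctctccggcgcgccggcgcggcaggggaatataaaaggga
Hk2 (chr6:82774405-82774704, minus strand): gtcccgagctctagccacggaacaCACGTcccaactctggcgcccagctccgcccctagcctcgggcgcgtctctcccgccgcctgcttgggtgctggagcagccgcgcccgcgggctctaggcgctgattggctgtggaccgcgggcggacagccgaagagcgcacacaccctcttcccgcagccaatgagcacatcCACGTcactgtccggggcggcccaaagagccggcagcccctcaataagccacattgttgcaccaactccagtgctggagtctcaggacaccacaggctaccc
All 5 hold the core, whichever way the gene moved. A core was found in 41 of the 51 windows of the 35 members with an entry (80.4%), in 43.8% of all 32851 windows in the table and in 63.3% of the 10675 windows of tested genes. Both strands were searched, and CACGTG, which reads the same on both, counts on each. A match is a description of these letters and shows no binding.

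Hif1a (ENSMUSG00000021109.13, chr12:73901375-73947530 on the plus strand), the gene of HIF-1α, was at 81.2, 88.5, 77.9 and 81.9 RPM with control siRNA and at 106, 111, 99.3 and 96.4 RPM with isoproterenol added. Every isoproterenol library was above every library without it. The log2 difference was 0.29 ± 0.06, a fold of 1.22 (limma adjusted p = 0.00682), and 0.31 and 0.28 in experiments 1 and 2. In Cebpb siRNA cells Hif1a was at 78, 78.4, 74.8 and 75.6 RPM without isoproterenol and at 85.2, 85.2, 81.1 and 73.7 RPM with it. Those groups overlapped, and the difference was 0.03 ± 0.06 (adjusted p = 0.856). Annotated genes of unknown role overlap Hif1a near its 3′ end, Gm15283 on the other strand and Gm49321 on the same strand. Whether the authors' counting used strand is not stated in the sources used here, and strand would not set Gm49321 apart. Other annotated genes also lie at or near the 3′ ends of Hk3, Pfkl, Pfkp, Aldoc, Tpi1, Gapdh, Pkm, Bnip3, Ero1l and Ndrg1.

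Bnip3 (ENSMUSG00000078566.8, chr7:138890836-138909519 on the minus strand) encodes a mitochondrial outer membrane protein that serves in the removal of mitochondria by autophagy. It was at 14.7, 16.1, 11.8 and 9.96 RPM with control siRNA and at 21, 21.8, 17.5 and 16.6 RPM with isoproterenol. The groups did not overlap in deposited values, though they did after scaling, and within each experiment they were apart. The log2 difference was 0.53 ± 0.10, a fold of 1.44 (limma adjusted p = 0.00299). In Cebpb siRNA cells the levels were 13.8, 13.1, 9.97 and 11.1 RPM without isoproterenol and 15.6, 13.1, 11.4 and 10.9 RPM with it. These overlapped, with a difference of 0.03 ± 0.10 (adjusted p = 0.921). Bnip3 is one of the genes with near-identical copies and overlaps Gm45507 and Gm18258 on the other strand.

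Ero1l (ENSMUSG00000021831.9, chr14:45283087-45318771 on the minus strand), also called Ero1a, encodes an oxidase that drives disulfide formation in the endoplasmic reticulum. It was at 30.3, 32.9, 26.2 and 25.2 RPM with control siRNA and at 37.3, 38.2, 34 and 32.8 RPM with isoproterenol. The ranges touched across experiments but were apart within each, and the log2 difference was 0.28 ± 0.07, a fold of 1.22 (limma adjusted p = 0.0366). In Cebpb siRNA cells it was at 20, 21.2, 18.4 and 17 RPM and, with isoproterenol, at 23.9, 23.9, 18.9 and 18 RPM, which overlapped (0.08 ± 0.07, adjusted p = 0.557).

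The 5 other HIF members tested did not pass in control siRNA cells. P4ha1, a collagen prolyl hydroxylase subunit, differed by 0.23 ± 0.07 (limma adjusted p = 0.128) and Higd1a, a small mitochondrial protein, by 0.21 ± 0.09 (0.329). Egln1, the main HIF prolyl hydroxylase PHD2, differed by 0.14 ± 0.13, Bnip3l, a relative of Bnip3, by −0.01 ± 0.12 and Ndrg1, a stress-induced protein, by −0.03 ± 0.11. Of the enzymes, only Pgam1 (0.42 ± 0.18, adjusted p = 0.361) and Ldha (0.15 ± 0.06, 0.318) had an unadjusted p under 0.05. Pdk1 (0.18 ± 0.11), Pgk1 (0.17 ± 0.16) and Eno3 (0.16 ± 0.16) differed by more than Ldha, with larger errors. The call of Ero1l was lost, with differences of 0.26 to 0.33 and adjusted p up to 0.152, on leaving out any 1 of 7 libraries, that is all of the control siRNA and control siRNA with isoproterenol libraries but control siRNA experiment 1 replicate 2. None of the 3 passed without the term for experiment (adjusted p = 0.113 for Hif1a, 0.298 for Bnip3 and 0.535 for Ero1l) or within 1 experiment alone.

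**Figure D1:**
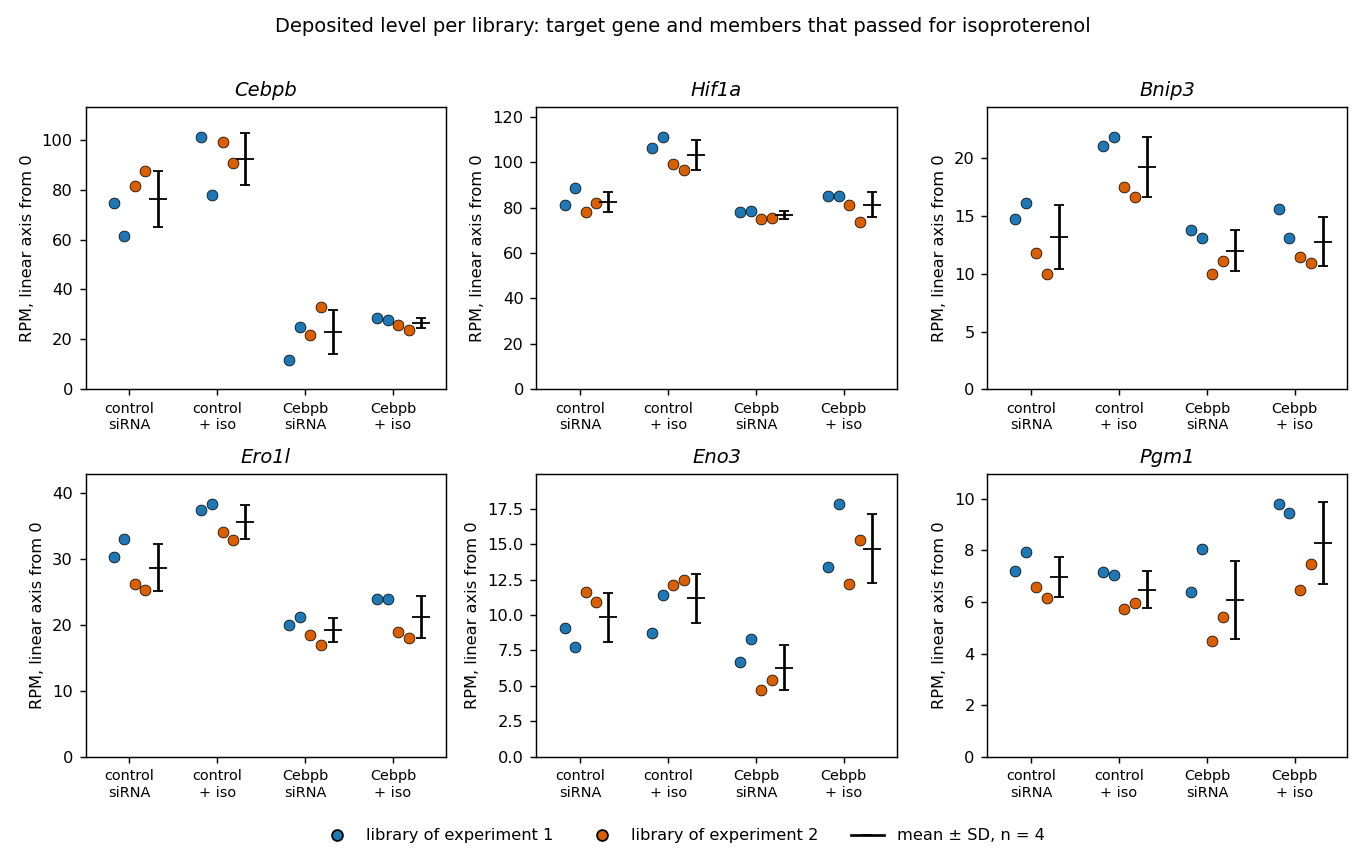
Deposited level in RPM (linear axis from 0) of Cebpb and of the 5 members that passed for isoproterenol, in each library of the 4 groups; points are libraries, coloured by experiment, and bars give the mean ± SD of 4. Hif1a stands at 96.4 to 111 RPM in the control siRNA libraries with isoproterenol and at 73.7 to 88.5 RPM in the other 3 groups, while Eno3 is highest in Cebpb siRNA libraries with isoproterenol (12.2 to 17.8 RPM).

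In Cebpb siRNA cells isoproterenol raised 2 of the 34 genes, Eno3 and Pgm1, and none fell, against 2.83% of all genes that rose and 2.64% that fell. No HIF system or target gene passed, and their median difference was 0.03.

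Eno3 (ENSMUSG00000060600.15, chr11:70657202-70662513 on the plus strand), the muscle-type enolase, was at 6.68, 8.34, 4.73 and 5.41 RPM with Cebpb siRNA and at 13.4, 17.8, 12.2 and 15.3 RPM with isoproterenol added. All 4 treated libraries were above all 4 untreated ones, and the log2 difference was 1.18 ± 0.16, a fold of 2.27 (limma adjusted p = 4.43e-05). In control siRNA cells Eno3 was at 9.08, 7.73, 11.6 and 10.9 RPM without and 8.71, 11.4, 12.1 and 12.5 RPM with isoproterenol. Those groups overlapped, and the difference was 0.16 ± 0.16 (adjusted p = 0.814). No other gene overlaps Eno3 in the annotation, and no near-identical 3′ end was found.

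Pgm1, read under that symbol, is named for phosphoglucomutase, the enzyme that links glucose 6-phosphate to glycogen. The symbols Pgm1 and Pgm2 were exchanged between releases of the mouse annotation and the files do not say which release applies. No position is therefore given for either, and whether the Pgm1 row counts the glycogen-linked enzyme is not settled. Pgm1 was at 6.4, 8.04, 4.49 and 5.41 RPM with Cebpb siRNA and at 9.78, 9.45, 6.45 and 7.48 RPM with isoproterenol. The groups overlapped across experiments and were apart within each, and the log2 difference was 0.40 ± 0.11 (limma adjusted p = 0.0378). With control siRNA it was at 7.19, 7.95, 6.6 and 6.16 RPM and with isoproterenol at 7.17, 7.04, 5.73 and 5.98 RPM, which overlapped (−0.14 ± 0.11, adjusted p = 0.74). Leaving out any 1 of 5 libraries ended this call, with differences of 0.32 to 0.47 and adjusted p up to 0.123: Cebpb siRNA experiment 1 replicate 1 and experiment 2 replicate 1, and the isoproterenol libraries experiment 1 replicates 1 and 2 and experiment 2 replicate 2. It did not pass either within experiment 1 (0.259), within experiment 2 (0.255), or when only the groups compared were in the fit (0.13).

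The difference between the isoproterenol effects in Cebpb siRNA and control siRNA cells was tested itself. None of the 34 genes passed in limma, against 0.109% of all genes higher and 0.118% lower (25 genes), and 7 had an unadjusted p under 0.05. The share of all genes with an unadjusted p under 0.05 is not given here, so the 7 cannot be read as an excess. Eno3 was nearest, with a difference of effects of 1.03 ± 0.22 (adjusted p = 0.0572). It passed on leaving out control siRNA experiment 1 replicate 2, Cebpb siRNA experiment 1 replicate 2 or Cebpb siRNA with isoproterenol experiment 2 replicate 1, with values of 0.89 to 1.16 over all single libraries left out and the lowest adjusted p at 0.0154. The others were Bnip3 (−0.50 ± 0.14, adjusted p = 0.195), Pdk1 (−0.53 ± 0.15, 0.246), Pgm1 (0.54 ± 0.16, 0.282), Hif1a (−0.26 ± 0.08, 0.339), P4ha1 (−0.25 ± 0.10, 0.629) and Hk2 (−0.33 ± 0.16, 0.774). A smaller isoproterenol response of Hif1a, Bnip3 or Ero1l after Cebpb siRNA is thus not shown at this threshold. The median difference of effects was −0.22 over the 8 HIF genes, −0.08 over the 26 others and 0.00 (−0.003) over all genes.

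**Figure D2:**
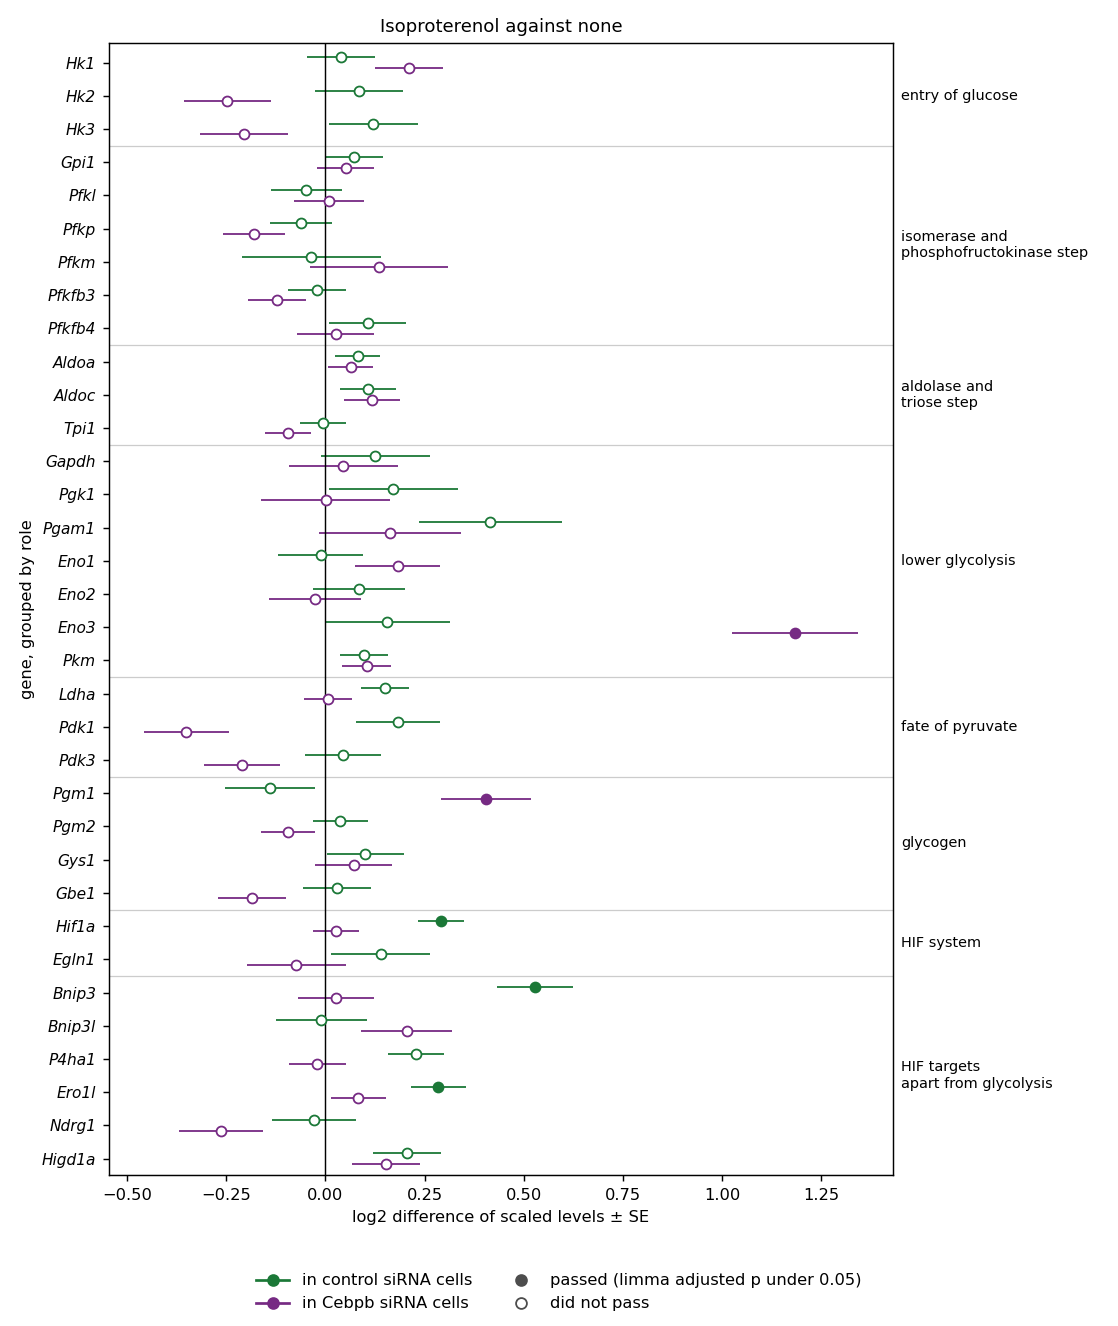
Log2 difference ± SE with isoproterenol for the 34 tested genes, grouped by role, in control siRNA cells (green) and Cebpb siRNA cells (purple); filled points passed at a limma adjusted p under 0.05. The filled points are Hif1a, Bnip3 and Ero1l in control siRNA cells (0.28 to 0.53) and Eno3 and Pgm1 in Cebpb siRNA cells (1.18 and 0.40).

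Cebpb siRNA changed many members in both directions. Without isoproterenol 10 of 34 rose (29.4%) and 12 fell (35.3%), and over all genes 31.5% rose and 29.8% fell. With isoproterenol 7 rose (20.6%) and 14 fell (41.2%), against 32.1% and 30% of all genes. Taken as a whole the members thus stood near the background in the first comparison, and the list as such was not tested. On levels without scaling the split was 5 up and 14 down without isoproterenol, and all tested genes tilted the same way, from 3482 up and 3294 down to 2726 and 3917. In both comparisons 10 genes fell (Hk2, Gpi1, Pfkp, Tpi1, Ldha, Pdk1, Pdk3, Bnip3l, Ero1l and Ndrg1) and 5 rose (Hk1, Pfkl, Aldoc, Pkm and P4ha1), of which Pkm in both and Pfkl without isoproterenol did not pass without scaling. The share of all genes called the same way in both comparisons is not given here. These counts therefore have no background beside them and are a list only. All 43 calls had the same sign in both experiments. Both experiments entered the fit that made the calls, which favours a shared sign, so this is not independent support.

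At the entry of glucose, Hk2 fell and Hk1 rose. Hk2, the inducible hexokinase that binds mitochondria, was at 91.1, 84.1, 98.1 and 89.3 RPM with control siRNA and at 55.9, 63.8, 48.7 and 52.5 RPM with Cebpb siRNA. With isoproterenol it was at 93.1, 94.4, 102 and 104 RPM against 60.3, 59.4, 42.3 and 35.5 RPM. The groups were far apart in both pairs, and the log2 difference was −0.62 ± 0.11 without (limma adjusted p = 4.67e-05) and −0.96 ± 0.11 with isoproterenol (1.63e-07). With isoproterenol the effect was −0.59 in experiment 1 and −1.33 in experiment 2.

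Hk1, the widely expressed hexokinase, was at 80, 83, 72.5 and 81.6 RPM with control siRNA and at 98.6, 111, 101 and 81.9 RPM with Cebpb siRNA, and with isoproterenol at 79.5, 94.3, 85.6 and 74.7 RPM against 103, 112, 121 and 135 RPM. With isoproterenol every Cebpb siRNA library was above every control library. Without it the groups overlapped through 1 Cebpb siRNA library, experiment 2 replicate 2, which lay below 1 control library of experiment 1, and within each experiment they were apart. Hk1 rose by 0.40 ± 0.09 (adjusted p = 0.000408) and, with isoproterenol, by 0.57 ± 0.09 (5.85e-06). Hk3, the hexokinase of myeloid cells, was at 13.9, 13.9, 11.8 and 14.4 RPM against 13.3, 17.4, 15.7 and 19.2 RPM without isoproterenol. It rose there by 0.37 ± 0.11 (limma adjusted p = 0.00691), although the first Cebpb siRNA library lay within the control range, and with isoproterenol the difference was 0.04 ± 0.11 (0.754). The rise was 0.18 in experiment 1 and 0.56 in experiment 2, and the call was lost within experiment 1 alone (limma adjusted p = 0.226).

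The make-up of hexokinase reads shifted with these changes. Hk2 held 49.4 ± 3.1% of them with control siRNA (46.5 to 53.8%) and 32.6 ± 2.1% with Cebpb siRNA (29.5 to 34.2%). Hk1 held 43.2 ± 2.6% and 57.7 ± 3.2%. With isoproterenol Hk2 held 50 ± 2.9% and 27.1 ± 6.7%. The summed hexokinase level was 183 ± 2.08 RPM with control siRNA and 170 ± 16.1 RPM with Cebpb siRNA, and those ranges overlapped. Shares are descriptions of reads and were not tested.

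At the isomerase and phosphofructokinase step, Pfkp, the platelet-type phosphofructokinase, was the main isozyme and fell. It was at 120, 114, 105 and 111 RPM with control siRNA and at 75.8, 82.6, 75.1 and 60.5 RPM with Cebpb siRNA. Under isoproterenol it stood at 111, 115, 113 and 103 RPM against 57.4, 78.5, 63.8 and 69.7 RPM. No Cebpb siRNA library reached the lowest control library, and the differences were −0.53 ± 0.08 (limma adjusted p = 4.52e-06) and −0.65 ± 0.08 (2.37e-07). Its 3′ end lies by Pitrm1, on the other strand.

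Pfkl, the liver-type phosphofructokinase, was at 20.1, 16.6, 17 and 14.5 RPM with control siRNA and at 22.4, 22, 17.5 and 16.5 RPM with Cebpb siRNA. These were apart within experiment 1 and overlapped in experiment 2 as deposited, though not after scaling. Pfkl rose by 0.29 ± 0.09 (limma adjusted p = 0.00735) and, with isoproterenol, by 0.35 ± 0.09 (0.00179). With isoproterenol its levels were 17.2, 17.3, 14.8 and 18 RPM against 23, 23.3, 17.9 and 17.7 RPM, which overlapped as deposited. That rise was 0.49 in experiment 1 and 0.21 in experiment 2. Within experiment 2 alone Pfkl passed neither without isoproterenol (limma adjusted p = 0.1612) nor with it (0.2315). Without scaling the first call was lost (0.20, adjusted p = 0.0761). Pfkp made up 84.1 ± 1.7% of phosphofructokinase reads with control siRNA and 75.8 ± 2.4% with Cebpb siRNA, and Pfkl 12.7 ± 1.2% and 20.2 ± 1.4%. The summed phosphofructokinase level was 125 to 146 RPM with control siRNA and 78.7 to 111 RPM with Cebpb siRNA, which did not overlap.

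Gpi1, glucose 6-phosphate isomerase, was at 114, 108, 105 and 98.4 RPM with control siRNA and at 93, 99.3, 79.3 and 67.1 RPM with Cebpb siRNA. The isoproterenol libraries had 108, 128, 110 and 113 RPM against 86.4, 96.8, 82.9 and 95.1 RPM. The first pair overlapped slightly and the second did not, and Gpi1 fell by 0.25 ± 0.07 (limma adjusted p = 0.00498) and by 0.27 ± 0.07 (0.00254) on the log2 scale. Pfkfb4, which makes and breaks the phosphofructokinase activator fructose 2,6-bisphosphate, rose by 0.26 ± 0.10 without isoproterenol (0.0238), and the difference with it was 0.18 ± 0.10 (0.112). Pfkfb3, the more kinase-like enzyme of that pair, differed by 0.05 ± 0.07 and −0.05 ± 0.07. Pfkm, the muscle-type phosphofructokinase, differed by −0.10 ± 0.17 and 0.07 ± 0.17, and none of these 4 values passed.

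At the aldolase and triose step, Aldoc had the largest rise of any member in both comparisons. Aldoc (ENSMUSG00000017390.15, chr11:78322968-78327781 on the plus strand), the brain-type aldolase, was at 60.9, 59.2, 51 and 54.7 RPM with control siRNA and at 118, 122, 98.8 and 77.5 RPM with Cebpb siRNA. With isoproterenol its levels were 65.2, 67.9, 58.5 and 57.3 RPM against 116, 121, 108 and 116 RPM. The groups were well apart, with the smallest library the lowest of the Cebpb siRNA libraries, and the differences were 0.96 ± 0.07 (limma adjusted p = 1.15e-10) and 0.97 ± 0.07 (8.74e-11), folds of 1.94 and 1.95. Aldoc held 9.9 ± 0.7% of aldolase reads with control siRNA and 16.4 ± 1.5% with Cebpb siRNA. Aldoa has near-identical copies and Aldoc has none, so these shares can overstate Aldoc.

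Aldoa, the main aldolase, differed by 0.13 ± 0.06 (limma adjusted p = 0.0568) and 0.11 ± 0.06 (0.0978), so it passed in neither. Tpi1, which interconverts the triose phosphates, was at 253, 227, 240 and 234 RPM with control siRNA and at 207, 232, 187 and 188 RPM with Cebpb siRNA. In the isoproterenol groups it was at 238, 249, 235 and 249 RPM against 201, 221, 198 and 172 RPM. The first pair overlapped through 1 library, experiment 1 replicate 2, and the second did not overlap. Tpi1 fell by 0.14 ± 0.06 (0.0438) and by 0.23 ± 0.06 (0.00189) on the log2 scale.

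In lower glycolysis all 3 enolases had negative differences with Cebpb siRNA without isoproterenol, and with it Eno3 rose while Eno2 fell. Eno3 fell with Cebpb siRNA without isoproterenol, by 0.57 ± 0.16 on the log2 scale (limma adjusted p = 0.00369), and rose with it, by 0.46 ± 0.16 (0.0148), the single member called in opposite directions. Both values were uneven between experiments, at −0.11 in experiment 1 and −1.02 in experiment 2 without isoproterenol, and at 0.69 and 0.24 with it. The first call was lost within experiment 1 alone (limma adjusted p = 0.588), and its deposited levels overlapped, at 7.73 to 11.6 RPM against 4.73 to 8.34 RPM. The second call was lost within experiment 2 alone (adjusted p = 0.257) and without scaling (0.39, 0.0507). The deposited levels overlapped there as well, at 8.71 to 12.5 RPM against 12.2 to 17.8 RPM. Its share of enolase reads was 21.2 ± 3.5% with control siRNA, 22.5 ± 3% with isoproterenol, 17.8 ± 2.3% with Cebpb siRNA and 31.9 ± 2.7% with both. The range with both (29.5 to 35.3%) lay above those of the other 3 groups, which reached 25.6%. A near-identical stretch of the 3′ end occurs in 5 other genes for Eno1 and 11 for Eno2, and in 0 for Eno3. Reads of Eno1 and Eno2 may thus be undercounted, and these shares can overstate Eno3.

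Eno1, the ubiquitous enolase, was at 18.8, 17.5, 22 and 21.9 RPM with control siRNA and at 13.5, 14.1, 13.9 and 17.9 RPM with Cebpb siRNA. These overlapped through the smallest library, and Eno1 fell by 0.34 ± 0.11 on the log2 scale (limma adjusted p = 0.00958). Isoproterenol libraries gave 17.8, 17.9, 20.4 and 25.8 RPM against 18.2, 18.4, 18.1 and 15.1 RPM, a difference of −0.15 ± 0.11 (0.249) that was 0.10 in experiment 1 and −0.39 in experiment 2. Eno2, the neuronal enolase, differed by −0.21 ± 0.12 without isoproterenol (0.133) and fell by 0.32 ± 0.12 with it (0.0222).

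Pgam1 was at 2.41, 3.34, 1.79 and 2.19 RPM with control siRNA and at 1.41, 2.05, 2.07 and 1.38 RPM with Cebpb siRNA, which overlapped (−0.39 ± 0.18, limma adjusted p = 0.0648). With isoproterenol it was at 2.87, 3.85, 3.14 and 3.15 RPM against 1.9, 2.47, 1.73 and 1.86 RPM, which did not overlap, and it fell by 0.64 ± 0.18 on the log2 scale (0.00359). These levels are near the floor. Pkm rose by 0.17 ± 0.06 (0.0199) and by 0.18 ± 0.06 (0.0155), and both calls were lost without scaling (0.07, adjusted p = 0.392, and 0.10, 0.226). Gapdh, the triose-phosphate dehydrogenase often used as a reference gene, differed by −0.13 ± 0.14 and −0.21 ± 0.14, and Pgk1, phosphoglycerate kinase, by 0.31 ± 0.16 and 0.14 ± 0.16, and none of these 4 values passed.

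The 3 detected genes that set the fate of pyruvate fell in both comparisons. Pdk1 (ENSMUSG00000006494.11, chr2:71873224-71903858 on the plus strand), a kinase that holds back pyruvate dehydrogenase and is a known HIF target, was at 23.8, 23.3, 17.7 and 17 RPM with control siRNA and at 15, 15.5, 9.22 and 11.7 RPM with Cebpb siRNA. Under isoproterenol it stood at 25.9, 28, 20.2 and 20.7 RPM against 12, 14.1, 9.73 and 6.7 RPM. No groups of a pair overlapped, and Pdk1 had the largest fall of any member with isoproterenol, at −1.12 ± 0.11 (limma adjusted p = 6.07e-09), against −0.59 ± 0.11 without it (5.42e-05). Its difference with isoproterenol was 0.18 ± 0.11 in control siRNA cells and −0.35 ± 0.11 in Cebpb siRNA cells (0.582 and 0.0573). The second of these passed on leaving out Cebpb siRNA experiment 2 replicate 1, or the isoproterenol library experiment 1 replicate 2 or experiment 2 replicate 1 (lowest adjusted p = 0.0309, values from −0.42 to −0.23 over all single libraries left out).

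Pdk3, a second kinase of that family, was at 25.5, 24.1, 21.5 and 23 RPM with control siRNA and at 15.5, 15.2, 14.4 and 15.8 RPM with Cebpb siRNA, and with isoproterenol at 26.5, 25.3, 22.6 and 24.8 RPM against 11.5, 16.2, 14.7 and 12.7 RPM. Every Cebpb siRNA library was lower than every control library, by −0.53 ± 0.10 (limma adjusted p = 5.18e-05) and −0.78 ± 0.10 (2.67e-07). Ldha was at 211, 208, 232 and 226 RPM with control siRNA and at 169, 184, 159 and 168 RPM with Cebpb siRNA. The isoproterenol libraries had 227, 243, 259 and 269 RPM against 171, 193, 186 and 162 RPM. The groups did not overlap, and Ldha fell by 0.27 ± 0.06 (0.000597) and by 0.41 ± 0.06 (4.23e-06) on the log2 scale.

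The genes listed under glycogen, Pgm1 and Pgm2 among them by symbol alone, did not fall in either comparison. Gbe1, the branching enzyme, was at 13, 12.6, 13.8 and 16.6 RPM with control siRNA and at 14.4, 16.3, 19.5 and 17.2 RPM with Cebpb siRNA. These overlapped across experiments and not within them, and Gbe1 rose by 0.37 ± 0.09 (limma adjusted p = 0.000889). With isoproterenol its levels were 13.8, 12.6, 15.8 and 16.1 RPM against 14.1, 14.3, 18.2 and 15 RPM (0.15 ± 0.09, 0.13).

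Gys1, the muscle-type glycogen synthase, was at 19.6, 16.9, 16.1 and 13.9 RPM against 20, 23.4, 15.6 and 15.7 RPM without isoproterenol, and at 17.5, 23.2, 16.4 and 16.1 RPM against 19, 21.8, 19.6 and 20.1 RPM with it. The groups overlapped in both pairs, and Gys1 rose by 0.25 ± 0.10 without isoproterenol (limma adjusted p = 0.0288) and missed the threshold with it (0.23 ± 0.10, 0.0502). Pgm2, the other phosphoglucomutase symbol, rose by 0.25 ± 0.07 without isoproterenol (0.00335), with 0.12 ± 0.07 with it (0.142). Pgm1 differed by −0.13 ± 0.11 without isoproterenol (0.339) and rose by 0.42 ± 0.11 with it (0.00306).

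**Figure D3:**
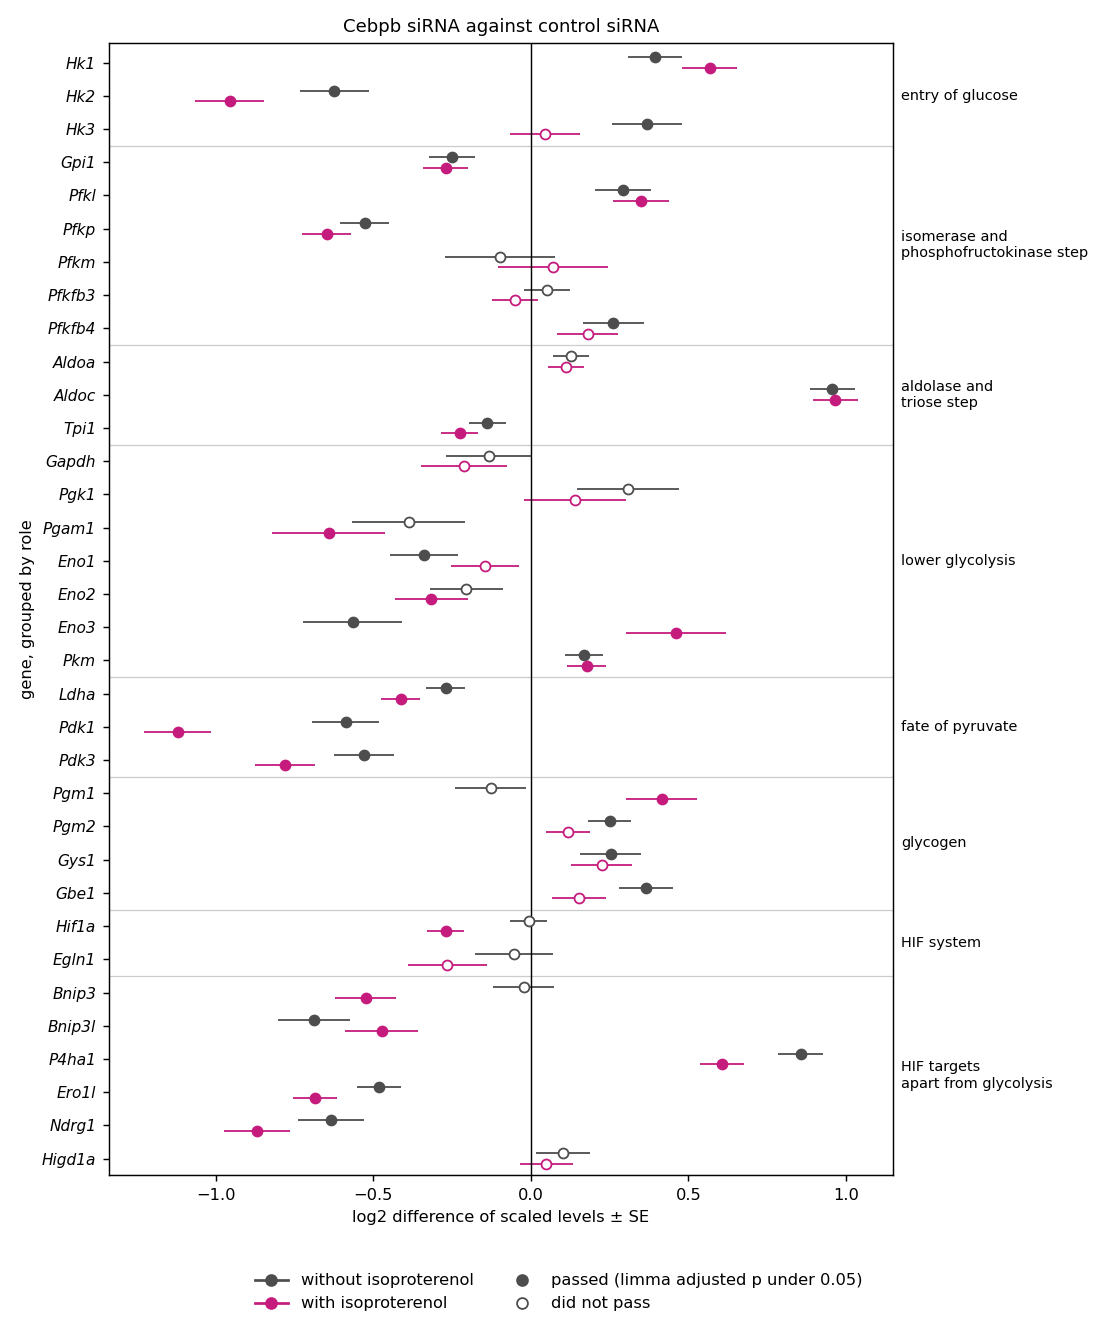
Log2 difference ± SE of Cebpb siRNA against control siRNA for the 34 tested genes, grouped by role from glucose entry to the HIF targets, without isoproterenol (grey) and with it (magenta); filled points passed at a limma adjusted p under 0.05. Aldoc lies farthest to the right (0.96 and 0.97), Pdk1 with isoproterenol farthest to the left (−1.12), and Eno3 has filled points on both sides of 0.

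In the HIF system, Hif1a did not differ with Cebpb siRNA without isoproterenol beyond its error (−0.01 ± 0.06, limma adjusted p = 0.929) and fell by 0.27 ± 0.06 on the log2 scale with it (0.000305). The levels of the 4 groups are given above: with isoproterenol, all control siRNA libraries were above all Cebpb siRNA libraries. Egln1 differed by −0.05 ± 0.13 (0.726) and −0.27 ± 0.13 (0.0697).

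Of the 6 tested HIF targets outside glycolysis, 3 fell and 1 rose without isoproterenol, and 4 fell and 1 rose with it. Over all genes 29.8% fell and 31.5% rose without isoproterenol, and 30% fell and 32.1% rose with it. Ndrg1 (ENSMUSG00000005125.13, chr15:66929318-66969640 on the minus strand) was at 41.2, 40.7, 31.3 and 25.4 RPM with control siRNA and at 24.8, 26.4, 14.3 and 18.9 RPM with Cebpb siRNA. In the isoproterenol groups it was at 35.8, 40.5, 26.3 and 35.4 RPM against 21.7, 21.8, 15.8 and 13.3 RPM. The first pair overlapped across experiments and the second did not, and Ndrg1 fell by 0.64 ± 0.11 (limma adjusted p = 1.85e-05) and by 0.87 ± 0.11 (2.43e-07) on the log2 scale. Gm17035 and Gm2895 overlap Ndrg1 on the other strand, Gm17035 near its 3′ end.

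Ero1l fell by 0.48 ± 0.07 without (limma adjusted p = 3.16e-06) and by 0.69 ± 0.07 with isoproterenol (1.77e-08), with no overlap between the siRNA groups listed above in either pair. Bnip3 differed by −0.02 ± 0.10 without isoproterenol (0.848) and fell by 0.53 ± 0.10 with it (6.16e-05). Bnip3l, a receptor for removal of mitochondria, fell from 10.1 ± 0.309 to 5.9 ± 0.606 RPM (SD, n = 4), by 0.69 ± 0.12 on the log2 scale (2.07e-05), and by 0.47 ± 0.12 with isoproterenol (0.00111).

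P4ha1 (ENSMUSG00000019916.14, chr10:59323296-59373304 on the plus strand) was the target among these that rose in both comparisons. It rose from 33.5 ± 3.12 to 56.7 ± 4.91 RPM without isoproterenol and from 40.1 ± 2.46 to 58.6 ± 10.1 RPM with it (SD, n = 4 each). The groups did not overlap, and the differences were 0.86 ± 0.07 (limma adjusted p = 7.08e-10) and 0.61 ± 0.07 (1.35e-07). Higd1a differed by 0.10 ± 0.09 and 0.05 ± 0.09 and did not pass. The HIF-linked members did not all move one way: Aldoc and P4ha1 rose while Hk2, Pdk1, Ldha, Ndrg1 and Ero1l fell in the same libraries.

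**Figure D4:**
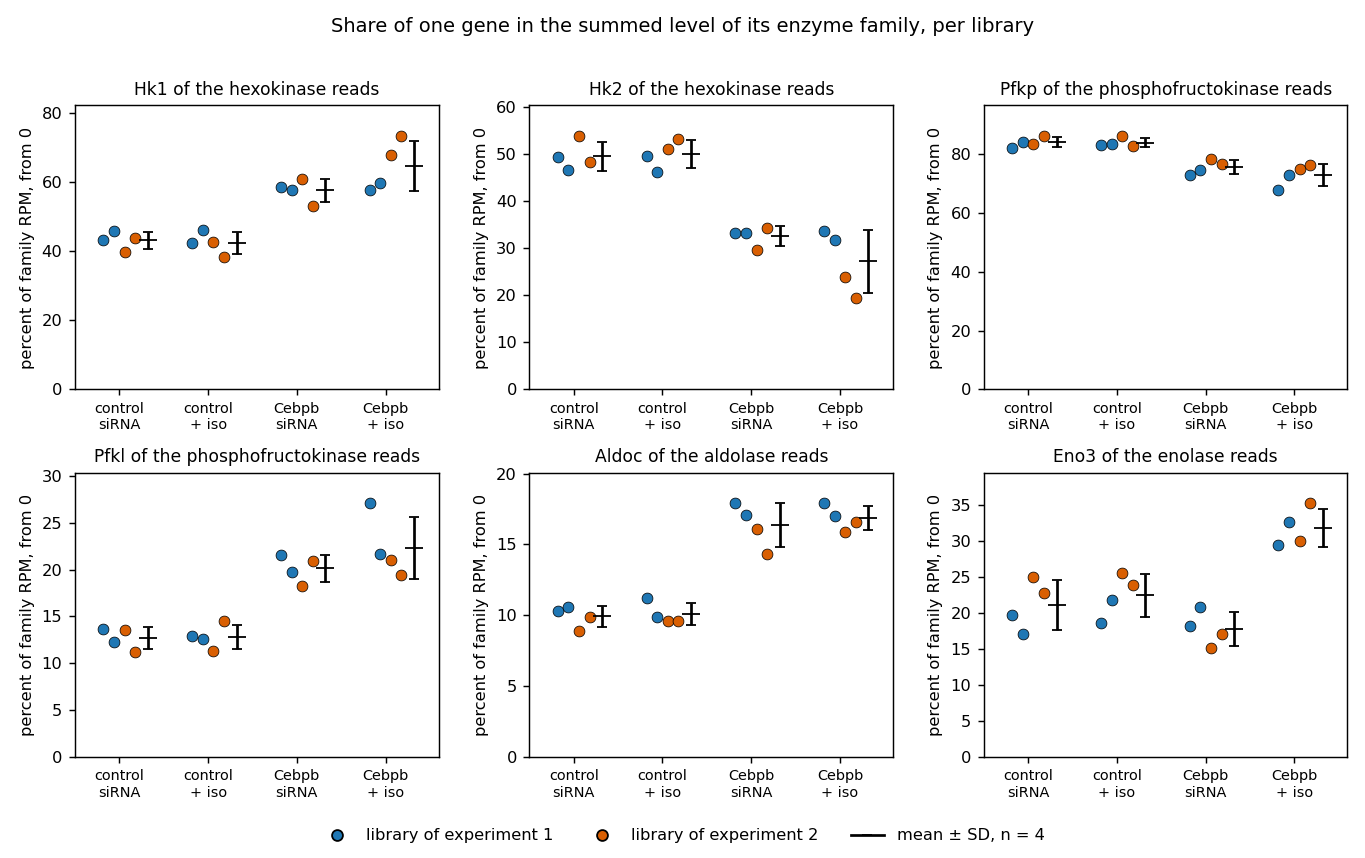
Percent of an enzyme family's summed RPM taken by 1 gene, per library (axes from 0), for hexokinase, phosphofructokinase, aldolase and enolase; points are libraries, coloured by experiment, and bars give the mean ± SD of 4. Hk2 takes 46.1 to 53.8% in control siRNA libraries and 19.4 to 34.2% in Cebpb siRNA libraries, and Eno3 takes most in Cebpb siRNA libraries with isoproterenol. Aldoa, Eno1 and Eno2 each share a near-identical stretch near the 3′ end with other genes and may be undercounted, so the shares of Aldoc and Eno3 can be overstated.

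Without scaling, Pfkfb4 (0.17, limma adjusted p = 0.162), Gys1 (0.16, 0.202) and Pgm2 (0.155, 0.0973) did not pass without isoproterenol, while Pgam1 (−0.48, 0.0284) and Eno2 (−0.30, 0.0412) did, as did Egln1 with isoproterenol (−0.34, 0.0203). Some siRNA calls rested on single libraries. Without isoproterenol, Pkm was lost on leaving out Cebpb siRNA experiment 1 replicate 2 or experiment 2 replicate 1 (0.14 to 0.22 over all single libraries, limma adjusted p up to 0.0755). Gys1 (0.20 to 0.29, up to 0.106) and Pfkfb4 (0.23 to 0.32, up to 0.0743) were both lost on leaving out replicate 2 of either experiment of control siRNA, or either replicate of Cebpb siRNA experiment 1. Tpi1 (−0.17 to −0.12, up to 0.123) was lost without any 1 of 7 libraries: control siRNA experiment 1 replicate 1 and both of experiment 2, Cebpb siRNA experiment 1 replicate 1 and both of experiment 2, and control siRNA with isoproterenol experiment 2 replicate 1. Without Cebpb siRNA experiment 2 replicate 1, Pgk1 passed (adjusted p = 0.0185), and so did Pgam1 (0.0162, also without control siRNA experiment 2 replicate 1). Aldoa passed without the smallest library or the isoproterenol libraries of Cebpb siRNA experiment 1 replicate 1 or experiment 2 replicate 2 (lowest 0.0128).

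With isoproterenol, Eno3 (0.35 to 0.55, limma adjusted p up to 0.0758) was lost without the isoproterenol library control siRNA experiment 1 replicate 1 or Cebpb siRNA experiment 1 replicate 2. Pkm (0.12 to 0.22, up to 0.073) was lost without the isoproterenol library experiment 2 replicate 2 of either siRNA. Eno2 (−0.40 to −0.23, up to 0.103) was lost without control siRNA experiment 1 replicate 2, Cebpb siRNA experiment 1 replicate 1 or experiment 2 replicate 1, all with isoproterenol. In the other direction, Gys1 passed without any 1 of 5 libraries: Cebpb siRNA experiment 1 replicate 2 and both of experiment 2, and, with isoproterenol, control siRNA experiment 1 replicate 2 and Cebpb siRNA experiment 1 replicate 1 (lowest 0.013). Egln1 passed without either Cebpb siRNA library of experiment 2 or the isoproterenol library of Cebpb siRNA experiment 1 replicate 1 (lowest 0.0264). Aldoa (lowest 0.0339) passed without that last library or control siRNA with isoproterenol experiment 1 replicate 2, and Pfkfb4 (0.0266) without control siRNA with isoproterenol experiment 2 replicate 1.

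The 3′ UTRs were searched for the 7-base word AACTTGT, because in an earlier look at these same fold changes it marked genes lowered by the Cebpb siRNA, so it is not independent evidence. Of the tested members Pdk1 and Bnip3l hold it, and both fell in both comparisons; Ak4, listed at 0, holds it too. Their sites are printed with the word in capitals and 10 bases on each side (GENCODE vM21, GRCm38, 5′ to 3′ on the gene's strand).
Pdk1 (chr2:71903647-71903673, plus strand): atatccgattAACTTGTgttctcaata
Bnip3l (chr14:66985270-66985296, minus strand): gaactcatgtAACTTGTagctataaac
Over all tested genes 49.4% of the 1519 with the word fell without isoproterenol (median −0.23), and 27.9% of the 8614 without it (median 0.05). Among the 32 members without the word 10 rose and 10 fell. The siRNA's own sequence was not used here.

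The pathway's other genes were taken from lists of 69 genes, 53 of them tested. Isoproterenol in control siRNA cells raised Slc2a1, the basal glucose transporter GLUT1 (0.45 ± 0.08, limma adjusted p = 0.00345), and 2 of 13 other HIF targets, Ddit4, an inhibitor of mTORC1 (0.58 ± 0.11, 0.00375), and Mxi1, a MYC antagonist (0.49 ± 0.11, 0.0154). Arnt2, a partner of HIF proteins, fell by 0.62 ± 0.15 on the log2 scale (0.034). Over all genes 1.17% rose and 0.453% fell in this comparison. Slc2a1 was at 40.6, 39.4, 53.2 and 49.9 RPM with control siRNA and at 55.3, 64.8, 60.7 and 74.5 RPM with isoproterenol, with no overlap. In Cebpb siRNA cells Slc2a1 (0.29 ± 0.08, 0.0456), Ddit4 (0.50 ± 0.11, 0.0068) and Mxi1 (0.83 ± 0.11, 3.16e-05) rose as well, and Arnt2 fell by 1.19 ± 0.15 on the log2 scale (2.1e-05).

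With Cebpb siRNA without isoproterenol, 3 of 6 genes of glucose and lactate transport rose and 2 fell. Over all genes 31.5% rose and 29.8% fell, the shares to set beside each list below. The largest change was in Slc16a1, the lactate and pyruvate transporter MCT1, which went from 30.3, 34.1, 34.2 and 36.9 RPM to 7.43, 8.39, 10.4 and 8.38 RPM, far apart (−1.88 ± 0.10, limma adjusted p = 4.44e-13). Slc2a6, a lysosomal hexose transporter (0.57 ± 0.09), and Slc2a1 (0.46 ± 0.08) rose, and Slc2a3, the high-affinity transporter GLUT3, fell by 0.47 ± 0.13 on the log2 scale. Of 6 tested enzymes of glycolysis and gluconeogenesis outside the members, Pfkfb1, Adpgk and G6pc3 fell (by 1.09 ± 0.14, 0.73 ± 0.16 and 0.43 ± 0.13) and Bpgm rose (0.27 ± 0.11). Of 7 pentose phosphate genes, Rpia, Pgd and Taldo1 fell (by 0.65 ± 0.08, 0.36 ± 0.05 and 0.37 ± 0.06) and G6pdx, its entry enzyme, rose (0.14 ± 0.06).

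Of 10 tested genes of pyruvate entry to mitochondria 2 rose, Mpc2, a subunit of the pyruvate carrier (0.34 ± 0.07), and Pdhb, of pyruvate dehydrogenase (0.23 ± 0.06). Among the other glycogen genes Pygl, the liver-type phosphorylase, rose (1.17 ± 0.21) and Gyg, the primer glycogenin, fell by 0.78 ± 0.10 on the log2 scale. Of 6 other genes of the HIF system Egln2 (0.41 ± 0.09) and Vhl (0.27 ± 0.08), which act in destroying HIF-α, rose. Arnt, the constant partner of HIF-1α, fell by 0.58 ± 0.13 and Hif1an, an inhibitory hydroxylase, by 0.36 ± 0.08. Of 13 other HIF targets 8 rose and 2 fell, against 31.5% and 29.8% of all genes. Their median was 0.38, against −0.25 for the 6 target members and 0.02 over all genes. Ddit4 (1.02 ± 0.11), Kdm4b (1.16 ± 0.19) and Anxa1 (0.52 ± 0.09) rose and Mxi1 fell by 0.68 ± 0.11.

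The experiments differed in many members as well. In experiment 2 against experiment 1, 3 of 34 were higher (Pkm, Gbe1 and Higd1a) and 15 lower, against 17.2% and 15.7% of all genes. The lowest were Pfkm (−0.78 ± 0.12, limma adjusted p = 4.89e-05), Eno2 (−0.56 ± 0.08, 2.09e-05), Pdk1 (−0.52 ± 0.08, 1.66e-05) and Ndrg1 (−0.52 ± 0.07, 1.46e-05). All 3 members that rose with isoproterenol in control siRNA cells were among the 15, with Bnip3 at −0.39 ± 0.07.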

How the data were processed

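RAW264.7 RNA from 16 samples went into QuantSeq 3′ FWD libraries (Lexogen), per the labels' protocols. The submitters' processing notes name STAR 2.5.3a and GRCm38. The tool that counted reads, and its strand setting, are not stated in the sources used here. The values the authors deposited are on a log2 scale, log2 of RPM over all sequenced reads, with 1 RPM or less listed as 0. This was read from the values, since multiplying back gave whole reads within 0.1 read for 100% of them. Depth sets how many reads this floor is, 9 to 25 per library. Replicates differed by more than counting noise (chi-square per degree of freedom 4.92 to 13.32). The precision of a value was taken from the spread between libraries.

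Each library was scaled with trimmed log ratios (30% off by ratio, 5% by level; offsets from −0.113 to 0.091 log2), and given a common floor of 1.08 RPM. A gene was kept if 4 or more libraries exceeded it (11044, of which 1377 were at the floor in 1 library or more, so that their differences are understated). limma 3.58.1 (trend, robust; R 4.3.3) was fitted with 4 groups and the experiment, over all 16 libraries. The contrasts were isoproterenol in each siRNA group, Cebpb siRNA without and with isoproterenol, the difference of the isoproterenol effects, and experiment 2 against 1. p-values were adjusted by Benjamini-Hochberg over all tested genes. The fit was tested on simulated data. Errors of levels are SDs of deposited RPM.

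The members, the further lists, the 3′ UTR word and the settings were chosen with earlier results of these data known. All 37 members matched GENCODE vM21 by symbol, and 106 symbols occur more than once in the files. Per role, every library is given for members called for isoproterenol and then for those with the largest siRNA difference, up to 3. Each list of other genes names up to 4 by smallest adjusted p without isoproterenol, and all called for isoproterenol in control siRNA cells. One gene of these lists is not reported here. The last 300 bases of transcripts were compared with blastn 2.17.0. The alternatives left out scaling, the floor, the experiment term, other groups, 1 experiment or 1 library, or added a replicate block.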

Additional observations from a re-analysis of the deposited data

Results flagged for a closer look

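Of 136 groups of 4 libraries looked at (34 genes in 4 groups), 4 held a library whose gap to the nearest of the other 3 was large against the whole range (Dixon's ratio at its 95% limit). Chance alone picks out about 1 in 20 groups. In the smallest library, Cebpb siRNA experiment 2 replicate 2, Pgk1 was at 41.8 RPM, against 21.7 to 22.5 RPM in the other 3, Eno1 was at 17.9 RPM, against 13.5 to 14.1 RPM, and Pgm2 was at 41.3 RPM, against 47.9 to 48.4 RPM. In Cebpb siRNA with isoproterenol experiment 2 replicate 2, Eno1 was at 15.1 RPM, against 18.1 to 18.4 RPM.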

How the results depend on the processing

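No member's difference changed sign where it was called. Over the alternatives other than left-out libraries, 1773 of 1836 values of single members stayed on their side of the threshold, 52 no longer passed and 11 newly passed. With 1 library left out these numbers were 3179 of 3264, 57 and 28. For isoproterenol in control siRNA cells 3 members passed, and 0 without the term for experiment, within experiment 1 or within experiment 2. Over all genes, 179 passed there, against 46, 108 and 19 under those 3 settings and 409 with only the groups compared. For isoproterenol in Cebpb siRNA cells 2 members passed, and 1 under each of these 4 settings. Over all genes, 605 passed, against 197, 250, 145 and 252. Of all genes 25 passed for the difference of effects, against 10, 12 and 2 under the first 3. Fits within 1 experiment had fewer libraries, and the cause of the other shifts was not tested. For Cebpb siRNA 22 members passed without isoproterenol and 21 with it, and 19 and 20 on levels without scaling. With single libraries left out, the members called ranged from 2 to 3 for isoproterenol in control siRNA cells, 1 to 3 in Cebpb siRNA cells, 19 to 23 for Cebpb siRNA without isoproterenol, 20 to 23 with it, 0 to 1 for the difference of effects and 16 to 19 (18 with all) between experiments. All genes called ranged from 99 to 248 and from 432 to 572 for isoproterenol in control and in Cebpb siRNA cells.

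The replicate numbers did not pair the libraries: deviations from the group means correlated over genes at −0.192 to 0.232 between groups with the same number. With a replicate block in place of the experiment term, 2 members passed for isoproterenol in control siRNA cells (Ero1l was lost, limma adjusted p = 0.0563), 2 in Cebpb siRNA cells, 22 for Cebpb siRNA without isoproterenol (Tpi1 lost, Pgam1 gained), 21 with it and 0 for the difference. The deposited values are floored at 1 RPM in every library, so changes of Ldhb, Egln3 and Ak4 below it were not detectable.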
